A study of Mus musculus with 8 samples.

Results

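To describe promoters at which H3K56ac is interrupted at the start of the gene, transcription start sites (TSSs) lying between 2 neighbouring H3K56ac peaks were collected from the merged peak list of muscle stem cells (MuSCs), the cells from which skeletal muscle regenerates. The members were chosen by the measured peak positions. A gene was taken when its annotated 5′ end lay outside every peak and a peak edge was found within 1000 bp on the upstream side and within 1000 bp on the downstream side. Of 20807 autosomal protein-coding genes in GENCODE, 233 met this rule, or 1.12% of all genes tested. These genes are called split TSSs below, the stretch without a peak is called the gap, and the peaks that bound it are called the flanks.

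The study profiled acetylation of lysine 56 of histone H3 (H3K56ac) by chromatin immunoprecipitation and sequencing in MuSCs that were sorted from C57BL/6 muscle and not cultured. The Control genotype was wild type. In Sirt6mKO mice the floxed Sirt6 gene, which codes for a nuclear deacetylase, is deleted in the skeletal muscle lineage by a Cre recombinase expressed from the Pax7 promoter, so that muscle fibres formed by these cells carry the deletion as well. For each genotype there were 2 replicates of the H3K56ac precipitate and 2 of input chromatin, which makes 8 libraries in 4 groups, and the study describes the animals as adult males. The merged list holds 105600 peaks as positions only. It separates neither genotype nor replicate, so a comparison of Sirt6mKO with Control MuSCs was not analysed here, the depth behind each peak is unknown, and the values below describe the union of the peaks that entered the list. The 2 flanks of a gap may therefore come from different libraries. All counts and medians are over genes, which are not replicates, and their 95% intervals cover counting error only. As a check of the cell type, all 20 MuSC marker genes, among them Pax7, Myf5 and Cd34, had their TSS inside a peak, whereas 8 of 20 marker genes of other muscle-resident cells did. The blood marker Ptprc and the endothelial markers Pecam1 and Cdh5 had no peak within 1000 bp of the TSS, while the endothelial markers Tek and Kdr had their TSS inside peaks of 12975 and 1139 bp.

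Lysine 56 lies in the globular core of histone H3, close to the place where DNA enters and leaves the nucleosome, and its acetylation loosens this contact. In mammals the acetyltransferases p300 and CBP add the mark, and sirtuins such as SIRT6 remove it. At active promoters the DNA around the TSS is usually depleted of nucleosomes and is flanked by positioned nucleosomes that carry histone modifications, so that a chromatin mark can appear as a pair of signals on either side of a TSS.

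The following sequences show the DNA without a peak directly upstream of split TSSs. They were read from the GRCm38 assembly, the build of the peak list (mm10), end at the base before the TSS, run 5′ to 3′ along transcription, and hold at most 150 bases of the gap. Capitals mark matches on either strand to one of 10 promoter motifs. The first set holds the acetyltransferase gene Ep300 and both immediate early genes among the split TSSs.
Ep300, chr15:81585301-81585350, plus strand: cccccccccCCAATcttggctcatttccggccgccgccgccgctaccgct
Klf4, chr4:55532467-55532616, minus strand: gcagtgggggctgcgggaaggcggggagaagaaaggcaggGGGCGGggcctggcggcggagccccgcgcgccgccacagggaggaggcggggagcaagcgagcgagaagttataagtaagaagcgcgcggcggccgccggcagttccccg
Jund, chr8:70698891-70698948, plus strand: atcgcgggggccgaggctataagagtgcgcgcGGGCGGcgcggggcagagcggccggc
The second set holds genes with broad peaks on both sides.
Clmn, chr12:104865077-104865153, minus strand: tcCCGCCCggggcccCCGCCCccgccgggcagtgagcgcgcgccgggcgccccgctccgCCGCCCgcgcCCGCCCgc
Capns1, chr7:30198812-30198826, minus strand: ttattgtgcgtgaag
Drap1, chr19:5424980-5425101, minus strand: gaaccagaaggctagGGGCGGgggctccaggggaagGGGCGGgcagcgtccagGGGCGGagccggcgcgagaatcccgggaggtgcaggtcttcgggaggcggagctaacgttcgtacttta
Safb, chr17:56584675-56584824, plus strand: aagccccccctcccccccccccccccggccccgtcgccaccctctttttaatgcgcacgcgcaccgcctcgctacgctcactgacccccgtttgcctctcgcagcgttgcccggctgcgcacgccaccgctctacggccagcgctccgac
The third set holds genes whose gap is centred on the TSS, and a histone gene that was added after its values were seen.
Lcn3, chr2:25765419-25765568, plus strand: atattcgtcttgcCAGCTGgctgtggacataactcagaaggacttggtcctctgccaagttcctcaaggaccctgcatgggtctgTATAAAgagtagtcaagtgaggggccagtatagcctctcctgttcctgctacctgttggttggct
Tuft1, chr3:94658873-94659022, minus strand: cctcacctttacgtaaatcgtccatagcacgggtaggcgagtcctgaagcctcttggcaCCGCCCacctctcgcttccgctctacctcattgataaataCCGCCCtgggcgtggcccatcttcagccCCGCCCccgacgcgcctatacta
Hist1h2an, chr13:21787219-21787368, minus strand: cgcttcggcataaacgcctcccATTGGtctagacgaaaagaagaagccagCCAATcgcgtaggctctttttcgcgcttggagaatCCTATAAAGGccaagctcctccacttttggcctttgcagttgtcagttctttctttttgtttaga
The Clmn stretch is GC-rich, with 93.5% GC, and carries 4 matches to GGGCGG, the motif bound by Sp and Klf factors. The stretches of Capns1 and Safb carry none of the 10 motifs. Lcn3 and Hist1h2an carry a match to TATAAA, and Hist1h2an also holds 2 matches to CCAAT and 1 to the serum response element, which overlaps the TATAAA match.

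Split TSSs were rare beside TSSs inside a peak. The share of 1.12% had a Wilson 95% interval of 0.986% to 1.27%. In contrast, 12122 genes (58.3%) had their 5′ end inside a peak, 276 had a peak within 1000 bp only upstream, 518 only downstream, and 7658 (36.8%) had none on either side. The share of split TSSs ranged from 0.331% on chromosome 1 to 2.42% on chromosome 15, where 19 of 785 genes were split. The 233 genes used 228 distinct gaps, because 5 pairs of divergent genes shared a gap. These pairs were Hist1h2an with Hist1h2bp, Hist1h2ag with Hist1h2bj, Cdca2 with Kctd9, Abhd18 with Mfsd8, and Hspb11 with Lrrc42.

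**Figure D1:**
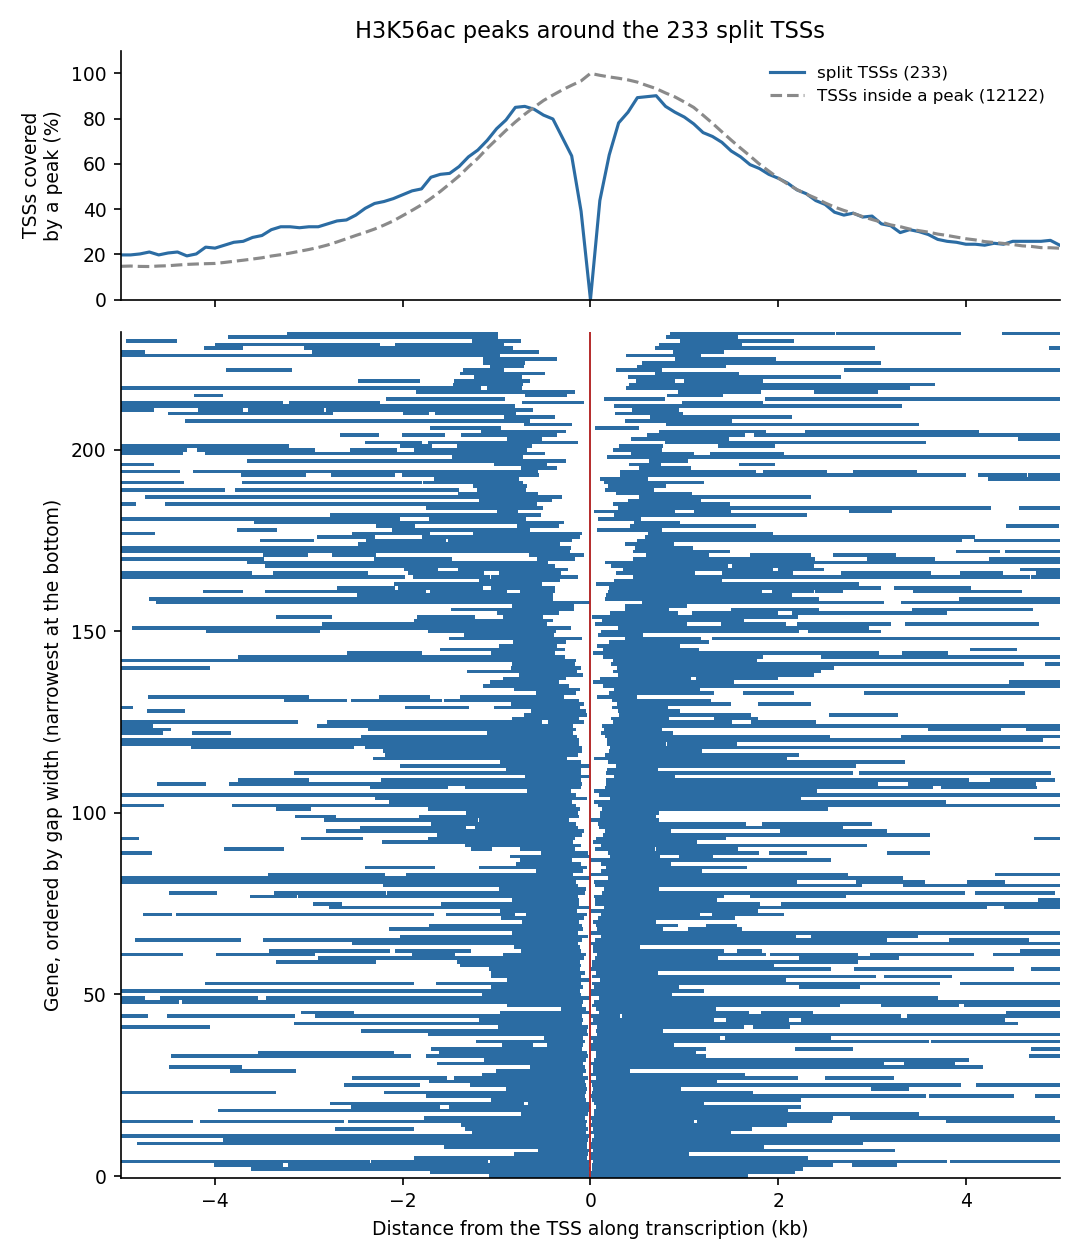
Merged H3K56ac peaks (blue bars) around the 233 split TSSs, one gene per row ordered by gap width, with distance from the TSS along transcription in kb, and above it the share of TSSs covered by a peak at each distance for split TSSs and for the 12122 TSSs inside a peak. Coverage of split TSSs is 0% at the TSS by the rule and reaches 81.5% at 500 bp upstream and 89.3% at 500 bp downstream.

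The map of all peaks shows how far H3K56ac reached on either side. At 500 bp downstream of the TSS a peak covered 89.3% of split TSSs and 96.1% of TSSs inside a peak, and at 2000 bp downstream the values were 53.6% and 53.8%. Upstream the order of the shares depended on the distance, with 81.5% of split TSSs against 88.0% at 500 bp, 75.5% against 70.8% at 1000 bp and 46.4% against 37.1% at 2000 bp. The rule asks for a peak within 1000 bp upstream at split TSSs and not at TSSs inside a peak. The upstream flank, the gap and the downstream flank together spanned a median of 3403 bp, while the median width of the peak over a TSS inside a peak was 3471 bp. In 91 of 233 genes the 2 flanks were the only peaks within 5000 bp of the TSS.

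The gaps were mostly short. Their median width was 286 bp (95% interval 236 to 352 bp), with quartiles of 122 and 692 bp and a range from 6 to 1836 bp. A gap narrower than 300 bp was found at 124 genes (53.2%), and 27 gaps were wider than 1000 bp. Gaps of at most 2000 bp between autosomal peaks that held no coding gene end numbered 54911 and had a median of 285 bp, with quartiles of 97 and 713.5 bp. With the same limit of 2000 bp and no limit on each side, 265 gaps held a coding gene end and had a median of 356 bp, with quartiles of 139 and 949 bp, and 46.0% of them were under 300 bp against 51.4% of the gaps without a gene end. Gaps under 50 bp made up 3.86% of the gaps at split TSSs and 14.8% of the gaps without a gene end, and gaps of 1600 bp or more made up 1.72% and 5.07%. The rule limits both ends, since a TSS is more likely to fall in a wide gap than in a narrow one and neither edge may be more than 1000 bp away.

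**Figure D2:**
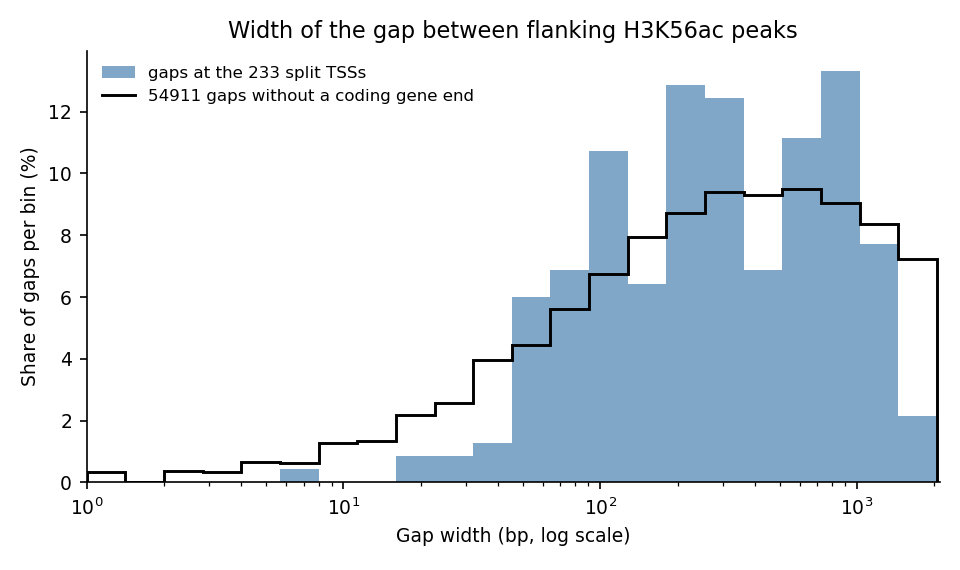
Share of gaps (%) per bin of gap width in bp on a log scale, for the 233 split TSSs (filled) and for 54911 autosomal gaps of at most 2000 bp without a coding gene end (line). The medians are 286 and 285 bp, and gaps under 50 bp are less frequent at split TSSs.

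The narrowest gaps were those of Ppa1 (6 bp), a pyrophosphatase gene, Usp5 (21 bp), which codes for a deubiquitinase, Pex5 (22 bp), the import receptor of peroxisomes, Bbip1 (30 bp), a subunit of the BBSome of cilia, and Bmf (31 bp), a BH3-only gene of apoptosis. At Ppa1 the downstream peak began 1 bp from the TSS. Gap widths are distances between called peak edges. How precisely these edges place the limits of acetylated chromatin was not tested. At the 72 genes with a gap under 150 bp, the gap therefore need not mark a stretch without acetylation. The widest gaps were those of Zc2hc1b (1836 bp), Clec18a (1791 bp), Sox10 (1697 bp), Ckmt1 (1653 bp) and Gdf15 (1517 bp). Sox10, a transcription factor of neural crest and Schwann cells and one of the markers of other cells, and Gdf15, a stress-induced cytokine of the TGF-beta family, had flanks of 516 and 1210 bp and of 2229 and 2344 bp. Zc2hc1b and Clec18a were also the genes nearest to the limit of the rule, with an upstream edge at 990 and 989 bp, followed by March9 with a downstream edge at 980 bp. Just outside the limit were Amotl2 (upstream edge at 1010 bp), Slc17a1 (1037 bp) and Dkk4 (downstream edge at 1044 bp).

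The gap lay close to the TSS on both sides with a small shift upstream. The upstream edge was a median of 130 bp and the downstream edge a median of 127 bp from the TSS. The centre of the gap was located a median of 16.5 bp upstream of the TSS (95% interval 27 to 4.5 bp upstream), and it was upstream in 135 of 233 genes (57.9%, Wilson 95% interval 51.5% to 64.1%). In 115 genes the centre was within 50 bp of the TSS. In 29 genes it was more than 200 bp away, of which 18 had the centre upstream. An edge lay less than 50 bp from the TSS in 97 genes, on the downstream side in 73 and on the upstream side in 46, so that the assignment of these genes depends on the exact base taken as TSS. Among the 136 genes with both edges at least 50 bp away, the share centred upstream was 51.5%.

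The most centred gaps of at least 200 bp were found at Tuft1, Lcn3, Grk6, Hs3st6, Col6a2 and Gng7. At Tuft1, which codes for tuftelin, a gap of 809 bp had its edges 408 bp upstream and 402 bp downstream, and the flanks of 776 and 778 bp were nearly equal. At Col6a2, a chain of collagen VI of the muscle extracellular matrix, a gap of 214 bp at chr10:76623517-76623730 had its edges 101 bp upstream and 114 bp downstream. Grk6, a kinase of G protein-coupled receptors, had a gap of 295 bp between flanks of 2306 and 2398 bp, whereas the flanks of Gng7, a G protein gamma subunit, were unequal with 1697 and 593 bp. Col6a2 lay inside a peak by the RefSeq start, and Grk6 did so by the start of its longest coding transcript.

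The annotation of the gaps was mixed. Of the 101824 bases summed over the gaps of all genes, 53.9% lay upstream of the TSS, 33.5% in exons and 12.6% in introns of the member gene, and 7.18% were coding. A start codon lay in the gap of 55 genes. A protein-coding or other annotated gene also started in the gap of 17 genes, and no split gene lay wholly inside its own gap. A divergent coding gene started within 1000 bp upstream at 24 genes (10.3%), close to the 11.2% of genes with the TSS inside a peak.

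The 5′ end of the gene was often not the only annotated start. At 189 of 233 genes more than 1 TSS was annotated, and at 133 genes another TSS of the same gene lay inside the downstream flank. At 151 genes (64.8%) at least 1 annotated TSS was inside some peak. When the TSS of the transcript with the longest coding sequence was used for these 233 genes, 184 remained split and 40 were inside a peak. RefSeq gives a gene start for 163 of them, of which 97 were split and 61 inside a peak.

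Over all split TSSs the downstream flank was the wider one more often than the upstream flank. The order of the median widths depended on genes with an edge close to the TSS. The upstream flank had a median width of 1203 bp (95% interval 1063 to 1415 bp, quartiles 740 and 2146 bp) and the downstream flank of 1495 bp (95% interval 1277 to 1712 bp, quartiles 855 and 2632 bp). The downstream flank was wider in 139 of 233 genes (59.7%, Wilson 95% interval 53.3% to 65.7%). Among the 136 genes with both edges at least 50 bp from the TSS the order of the medians turned, with 1181.5 bp upstream and 1139 bp downstream, and the downstream flank was wider in 54.4%. At the 72 gaps under 150 bp the medians were 1310.5 bp upstream and 1958 bp downstream, and at the 64 gaps of 600 bp or more they were 1026.5 and 924.5 bp. In 105 genes both flanks were at least 1000 bp wide, in 12 genes both were at least 3000 bp, and in 42 genes neither reached 1000 bp.

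**Figure D3:**
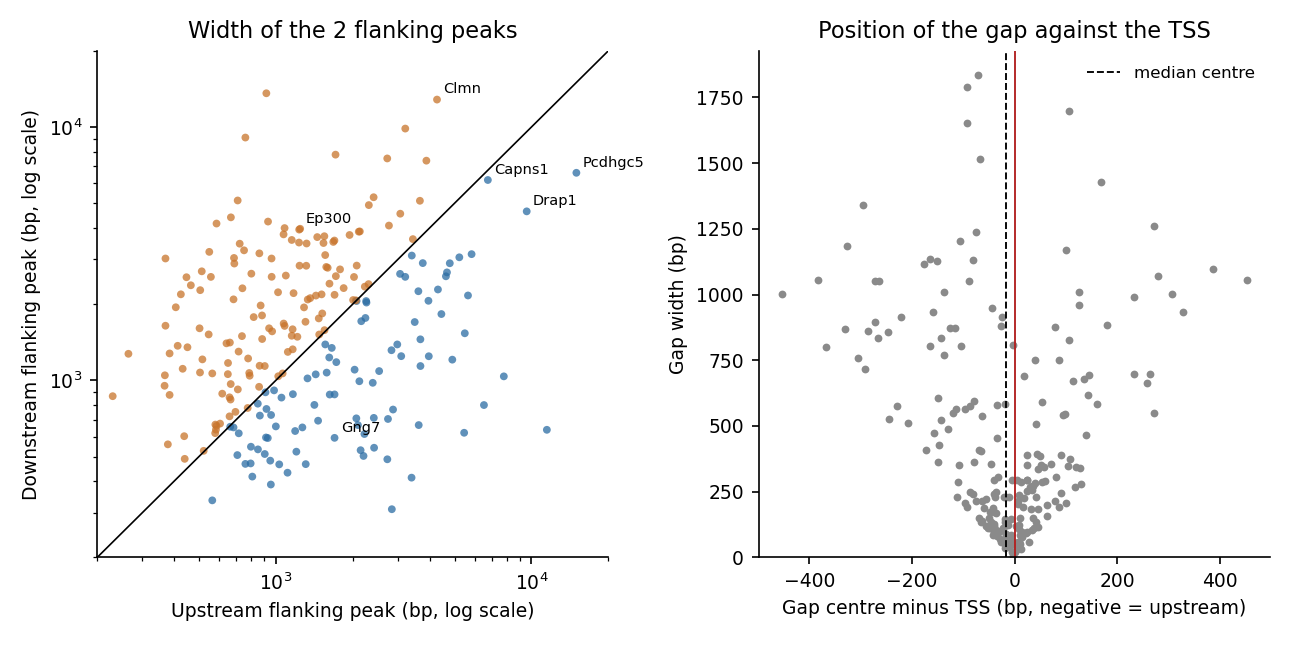
Left, width of the upstream and downstream flanking peak of each split TSS in bp on log scales, with the line of equal width, orange where the downstream peak is wider (139 genes) and blue where the upstream peak is wider (94 genes). Right, gap width in bp against the position of the gap centre relative to the TSS in bp, with a dashed line at the median of 16.5 bp upstream.

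The genes with the broadest narrower flank were Pcdhgc5, Capns1, Drap1, Clmn, Pcdh7 and Safb. At Capns1, the regulatory subunit of calpain proteases, peaks of 6752 and 6178 bp were separated by 51 bp at chr7:30198776-30198826, with edges 16 bp upstream and 36 bp downstream of the TSS. Clmn, which codes for calmin, had flanks of 4271 and 12832 bp around a gap of 110 bp, and Drap1, a repressor of TFIID-dependent transcription, had flanks of 9582 and 4646 bp around 295 bp. Safb, a scaffold attachment factor, shares its promoter region with the divergent gene Safb2 and had flanks of 3661 and 5115 bp around 240 bp. The protocadherin genes Pcdhgc5 and Pcdh7 had gaps of 248 and 50 bp. At these genes, broad H3K56ac peaks were separated by at most 295 bp at the annotated 5′ end. Other annotated starts lay inside a peak, namely the RefSeq start of Capns1, Pcdh7 and Safb and the start of the longest coding transcript of Clmn and Safb. Drap1 remained split by both.

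The DNA in the gaps was richer in GC than the peaks beside it. The median GC content was 66.0% in the gaps (95% interval 63.0% to 67.7%) and 59.2% in the adjoining 500 bp of both flanks, and it was higher in the gap at 188 of 233 genes (80.7%). GC content also rises towards the TSS of other genes. For TSSs inside a peak, windows of 72, 295 and 987 bp, which match the median edges of gaps under 150 bp, of 150 to under 600 bp and of 600 bp or more, were higher in GC than the 500 bp on either side at 78.2%, 86.0% and 88.8% of genes. The gaps of these 3 width classes were higher at 93.1%, 76.3% and 73.4% of split TSSs, so a gap richer in GC than its surroundings was no more frequent than at other marked TSSs once it was 150 bp or wider. A GC content above 70% was found in 88 gaps and in the adjoining peak ends of 15 genes. GC content declined as the gaps widened, from a median of 74.4% in gaps under 150 bp to 65.7% in gaps of 150 to under 600 bp and 57.0% in gaps of 600 bp or more. The matching windows at TSSs inside a peak had medians of 65.3%, 64.4% and 58.5%. A GC content above 70% was found in 56.9% of the narrowest, 40.2% of the middle and 12.5% of the widest gaps, and in 34.7%, 25.97% and 5.62% of the matching windows. The measure of CpG dinucleotides against those expected from base content had a median of 0.756 in the 301 bp around split TSSs, 0.808 around TSSs inside a peak and 0.196 around TSSs without a peak. Sequencing libraries can hold fewer fragments from DNA of very high GC content, and the part of GC content in the gaps was not tested.

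**Figure D4:**
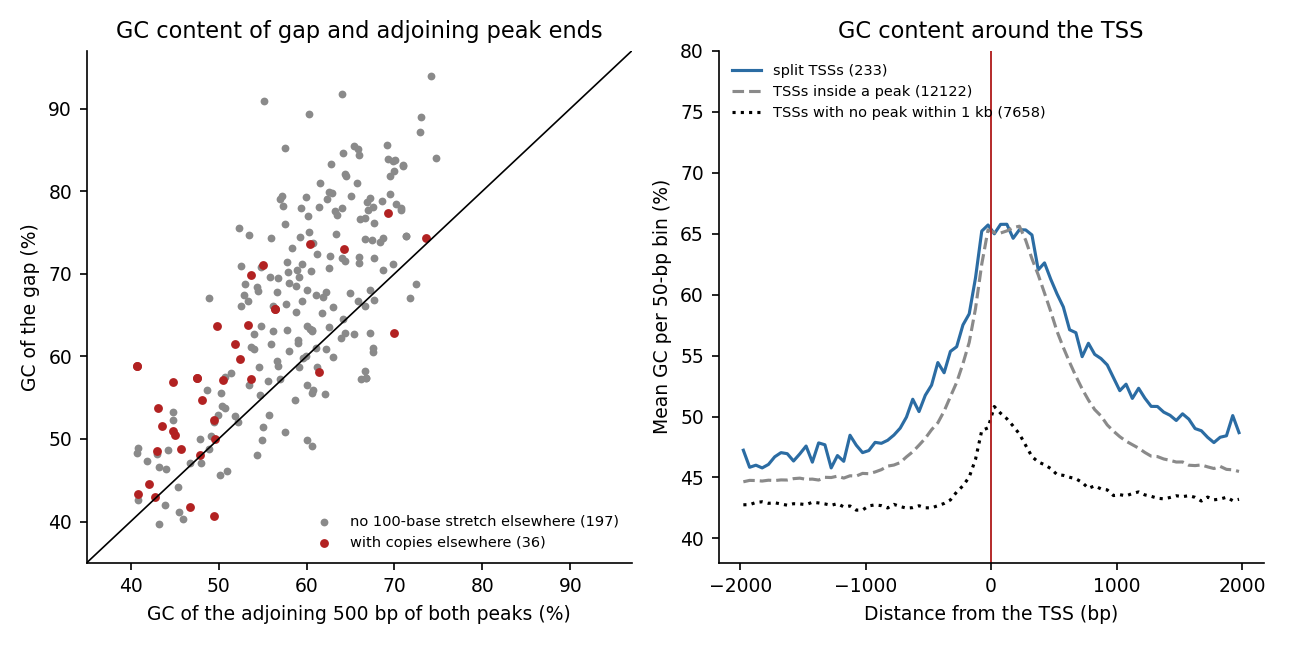
Left, GC content (%) of each gap against that of the adjoining 500 bp of both flanking peaks, with the line of equality. Red marks the 36 gaps in which a stretch of 100 bases that occurs elsewhere in the genome begins. Right, mean GC content (%) per 50-bp bin around the TSS for split TSSs, TSSs inside a peak and TSSs without a peak within 1 kb. GC content is higher in the gap at 188 of 233 genes, and around TSSs inside a peak windows of matching size are higher than their surroundings at 78.2% to 88.8% of genes.

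Sequence that occurs more than once in the genome was also more frequent than at other marked promoters. Because reads with more than 1 alignment were discarded by the authors, such sequence can lack a peak whatever its acetylation. A stretch of 100 bases found elsewhere in the genome began in the 301 bp around the TSS at 32 split TSSs (13.7%), at 1.34% of TSSs inside a peak and at 18.1% of TSSs without a peak. Within the gaps themselves 36 of 233 held such a start, and in 5 gaps, those of Tuft1 (85.4%), Zfp943 (84.1%), Tmem67 (63.5%), Trim7 (62.7%) and Zmym2 (60.8%), they were more than 50% of all starts. No adjoining peak end reached 50%. Repeat-masked bases made up at least 50% of 15 gaps and of 3 peak ends. A gap of at most 70% GC without any such copy was found at 114 genes. The paper lists reads shorter than 100 bases for these libraries. Sequence repeated only over shorter stretches was not counted, so these counts can miss sequence that reads could not place. The part of repeated sequence in the gaps was not tested.

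Promoter motifs were compared in the 250 bp before to 50 bp after the TSS, counting matches on either strand. GGGCGG was found at 68.7% of split TSSs, 62.7% of TSSs inside a peak and 43.7% of all coding TSSs. CCAAT, the motif of NF-Y, was found at 42.9%, 38.1% and 38.6%, and TATAAA at 8.58%, 7.12% and 12.7%. CCGGAAGT, a motif of ETS factors, was found at 2.15% of split TSSs (5 genes, Wilson 95% interval 0.920% to 4.92%), 7.67% of TSSs inside a peak and 4.80% of all. The other motifs differed by less than 3 percentage points between split TSSs and TSSs inside a peak. These were CACGTG (10.3% of split TSSs), CAGCTG (14.6%), TGANTCA (6.87%), TGACGTCA (2.58%), GCATGCGC (5.15%) and the serum response element (1.72%), and a match describes the letters in the window alone.

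Ep300, the gene of the acetyltransferase p300, was the only split gene among 21 genes of sirtuins, acetyltransferases and histone chaperones, of which 19 had the TSS inside a peak (4.76% split, against 1.12% of all genes). Its gap of 66 bp at chr15:81585301-81585366 had its edges 51 bp upstream and 16 bp downstream of the TSS and a GC content of 66.7%. The flanks were 1234 bp upstream and 3936 bp downstream. The start of its longest coding transcript, 46 bp further downstream, lay inside the downstream peak.

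Immediate early genes, which respond to stimulation without new protein synthesis, included 2 split genes of 33, or 6.06% against 1.12% of all genes, while 29 had the TSS inside a peak, or 87.9% against 58.3%. Klf4, a zinc finger transcription factor, had a gap of 242 bp at chr4:55532426-55532667 with edges 202 bp upstream and 41 bp downstream, between flanks of 1943 and 3748 bp. Jund, a subunit of the AP-1 transcription factor, had a gap of 183 bp at chr8:70698891-70699073 that lay mainly downstream, with edges at 59 and 125 bp, and held its start codon. Its flanks were 2111 and 3863 bp wide. By the RefSeq gene start Jund lay inside a peak, whereas Klf4 remained split. GC content was 71.9% in the Klf4 gap and 78.1% in the Jund gap, and neither held a stretch of 100 bases found elsewhere. At all 3 genes the downstream peak was the wider one.

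**Figure D5:**
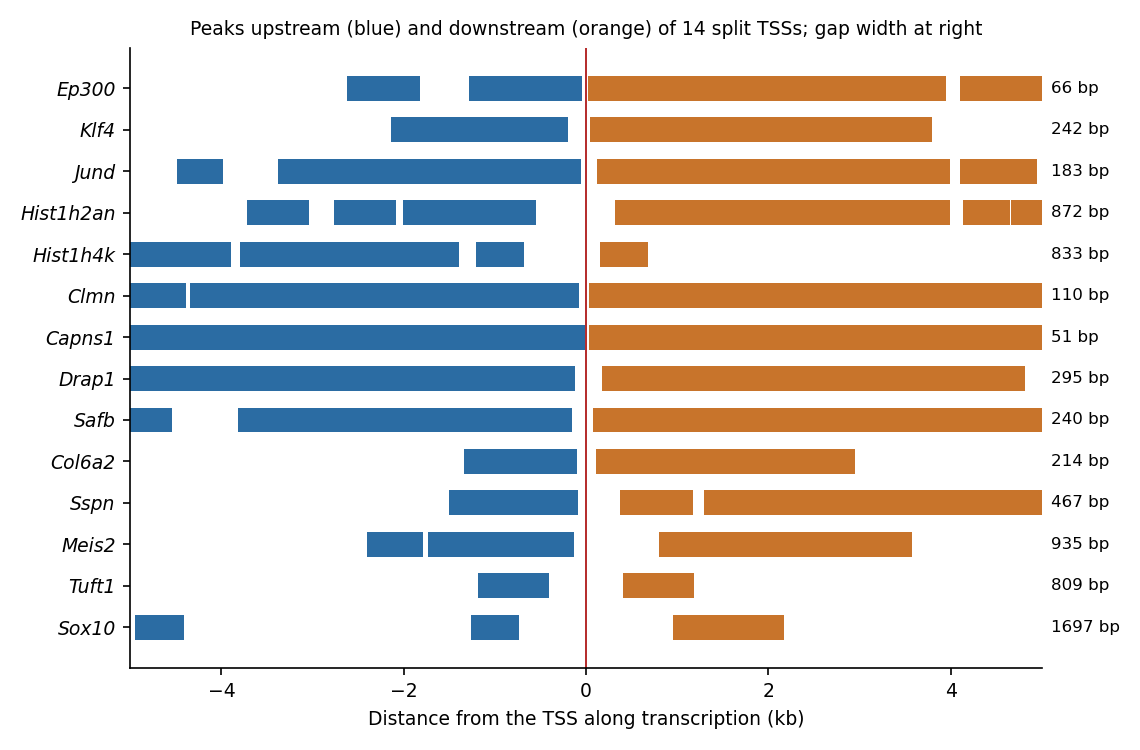
Merged H3K56ac peaks around 14 split TSSs, with distance from the TSS along transcription in kb, peaks upstream in blue, peaks downstream in orange and gap width in bp at the right. Gaps range from 51 bp at Capns1 to 1697 bp at Sox10.

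Replication-dependent histone genes held the most split TSSs of the gene lists. These genes supply histones during S phase and lie in clusters of similar copies. Of 67 genes, 8 were split (11.9%, against 1.12% of all genes), 47 were inside a peak and 8 had no peak on either side. The split genes, all of the Hist1 cluster on chromosome 13, shared 6 distinct gaps of 306 to 914 bp. Hist1h2bm had a gap of 914 bp, the divergent pair Hist1h2an and Hist1h2bp had a gap of 872 bp, and Hist1h4k had a gap of 833 bp, and each of these gaps included part of the coding sequence. Of the stretches of 100 bases that began in the gap shared by Hist1h2an and Hist1h2bp, 45.6% were found elsewhere in the genome. The value was 16.8% at Hist1h2bm and 0% at Hist1h4k. A repeated stretch began in the 301 bp around the TSS of 6 of 8 split histone genes and 21 of 47 histone genes with the TSS inside a peak. The part of these copies in the gaps was not tested.

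The remaining lists held few split TSSs or none. With 1.12% of all genes split, most of them are small enough to hold none without standing apart from other genes. None of 20 MuSC markers, 4 myogenic regulatory factors, 22 Notch pathway genes and 24 sarcomere genes was split, nor any of 81 cytosolic and 78 mitochondrial ribosomal protein genes, 48 proteasome and 81 oxidative phosphorylation subunits, 28 Mediator subunits, 52 translation initiation factors, 20 heat shock genes, 39 Hox genes and 1413 olfactory and vomeronasal receptor genes. The list of receptor genes is too large for this, but 1407 of its 1413 genes had no peak within 1000 bp and so could not be split. The 7 autosomal genes studied by chromatin or expression, among them Utrn and Mstn, were not split either. Single or few members came from the circadian clock genes (Tef, 1 of 15), splicing factors (Hnrnpk, 1 of 51), DNA replication factors (Gins2, 1 of 39), ubiquitin E2 genes (Ube2ql1, 1 of 34), Zfp zinc finger genes (Zfp384, Zfp943 and Zfp960, 3 of 383, or 0.783%) and solute carriers (Slc19a2, Slc13a4, Slc8a2 and Slc26a8, 4 of 352, or 1.14%). The last 2 shares were close to that of all genes. Tef, a PAR bZIP factor under clock control, had the widest downstream flank of all split TSSs with 13589 bp, beside an upstream flank of 918 bp and a gap of 356 bp. In Hnrnpk, an RNA-binding protein of splicing, 23.2% of the stretches of 100 bases that began in the gap of 267 bp were found elsewhere.

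The following genes were named after their values were seen. Genes with a role in muscle or its stem cells included Sspn and Sgce, which belong to the dystrophin-associated complex. Sspn had a gap of 467 bp between flanks of 1415 and 800 bp, and Sgce had a gap of 87 bp with the downstream edge 2 bp from the TSS. Cdh2, the N-cadherin gene, had a gap of 1011 bp with edges 380 bp upstream and 632 bp downstream. Mamstr, a coactivator of Mef2 factors, had a gap of 134 bp with the downstream edge 3 bp from the TSS, and Tead3, a partner of Yap, and Fermt2, an activator of integrins, had gaps of 90 and 136 bp. The gaps of Twist1 (859 bp) and Meis2 (935 bp), both transcription factors of mesenchymal and limb development, were displaced in opposite directions, with centres 247 bp upstream and 329 bp downstream. Most of these genes were not split by every annotation. Sspn, Sgce, Mamstr and Tead3 lay inside a peak by the start of the longest coding transcript, although Sspn, Mamstr and Tead3 remained split by the RefSeq start. Fermt2 and Meis2 lay inside a peak by the RefSeq start. Twist1 remained split by both starts.

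Of 41 Fox transcription factor genes, 5 were split (12.2%, against 1.12% of all genes), namely Foxb2, Foxd3, Foxh1, Foxl2 and Foxn2, while 19 were inside a peak. Gaps were wide at Foxb2 (1168 bp), Foxh1 (885 bp), Foxd3 (879 bp) and Foxl2 (802 bp) and narrow at Foxn2 (139 bp). Of 14 Nkx homeobox genes, Nkx1-2 and Nkx6-1 were split (14.3%) with gaps of 1135 and 1069 bp, and 10 had no peak on either side. The flanks of Foxd3 were 564 and 336 bp wide and those of Nkx6-1 438 and 602 bp, below the medians of all split TSSs. Zbtb10, Zbtb18 and Zbtb20, zinc finger genes of the Zbtb family, were split as 3 of 40 (7.50%) with gaps of 593, 693 and 606 bp, and 35 were inside a peak. Wnt1 and Fgf8, secreted signals of the embryo, had gaps of 341 and 171 bp. These families were singled out by their members, so their shares describe them only.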

How the data were processed

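MuSCs were profiled by ChIP-seq for H3K56ac on an Ion Proton instrument. The authors trimmed reads with Trim Galore, aligned them to mm10 with bowtie, discarded reads with more than 1 alignment, removed duplicates with Picard, called peaks with MACS2, removed blacklisted regions and united overlapping peaks with the reduce function of GenomicRanges. The submitters' processing notes also name FastQC, SAMtools and deepTools. The deposited list gives the positions of the merged peaks. Its score column was 0 in every row, it has 0 columns of values per sample, and which libraries entered the merge is not given in the sources used here. The paper lists the reads of each library, and peak numbers that differ widely between the MuSC samples. The depth behind each merged peak is unknown.

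Peaks were joined to the 5′ ends of protein-coding genes of GENCODE vM21 on GRCm38, counting positions from 1. Distances run from the TSS to the nearest peak base. Sequence came from the GRCm38 assembly, and a 100-base stretch counted as a copy when it occurred at another place on the assembled chromosomes on either strand. A stretch was assigned to the gap in which it began and could run on into the flanking peak. Shares have Wilson and medians order-statistic 95% intervals, which take genes as independent although 5 pairs share a gap. The functions, written in Python 3.11.15 with numpy 2.4.6, scipy 1.17.1 and matplotlib 3.10.9, were tested on simulated peaks and sequences. No test was run over genes.

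The members and the gene lists were chosen with earlier results of these data known. Genes were named by rule: the 5 narrowest and the 5 widest gaps, the 6 largest narrower flanks, the 6 most centred gaps of at least 200 bp, all members of the marker, myogenic, immediate early, Notch, acetylation and study gene lists, 3 genes on either side of the 1000 bp limit, and up to 4 examples of lists with at least 5 members. Predicted genes (Gm and Rik symbols) were passed over. Of the sequences the rule allows, those of Col6a2, Gng7, Grk6 and Pcdh7 are not shown for brevity, and 1 more is not reported here. Alternatives were other search windows, peak widths, joining of peaks, TSS definitions and gap selections.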

Additional observations from a re-analysis of the deposited data

How the results depend on the processing

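There were 88 values over 8 results and 11 alternatives. Of these, 71 stayed within 1.5 times the count of split TSSs or within the interval of the value given above, and 17 moved further. A change of sign was looked for in the gap centre only, where 0 values changed sign. The number of split TSSs was 177 to 303 under the other alternatives, 136 when the TSS had to lie at least 50 bp from both edges, 153 with RefSeq gene starts (97 of them shared with the 233) and 145 with gaps of at most 70% GC. The median gap width was 207 bp with a window of 500 bp, 508 bp with 2000 bp, 369 bp after peaks less than 100 bp apart were joined, 575.5 bp with the TSS at least 50 bp from both edges and 427 bp with gaps of at most 70% GC. Under the same 5 alternatives, in this order, the median GC content of the gap was 68.6%, 60.8%, 62.8%, 60.7% and 58.2%. The median centre lay at -27.5 bp with gaps of at most 70% GC, the share centred upstream was 51.5% with both edges at least 50 bp away, and the downstream flank had medians of 1245 and 1139 bp under these last 2 settings, the second below the upstream median of 1181.5 bp. The alternatives on RefSeq starts, copies and GC content were chosen after seeing the data. No paired analysis was possible because peak positions of all libraries were united and no value of a single replicate was at hand, and for the same reason no replicate could be left out. A gap in a union of peaks lacks a peak in every library that entered the merge. The 2 flanks of a gap may come from different libraries or genotypes, which cannot be told apart here. A single library therefore need not show both flanks, and flank widths are those of the union. For 97 genes with an edge less than 50 bp from the TSS, membership depends on the base taken as TSS.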

Other observations

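On chromosome X, which the rule leaves out, 20 of 948 protein-coding genes had a split TSS by the same distances, beside 233 of 20807 autosomal genes (1.12%).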
